A study of Saccharomyces cerevisiae with 30 samples.

Results

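The comparison described here set Ada3-3KR, a yeast strain with an acetylation mutant of Ada3, a subunit of SAGA, against wild type (WT) of the budding yeast strain BY4741 in glucose. It used 6 of the 30 RNA-seq libraries of the study, 3 of Ada3-3KR and 3 of WT, chosen by their labels and not by any measured value. Both strains had been grown in rich medium with 2% glucose and were then kept for 30 min in fresh medium of yeast extract, peptone and 2% glucose before total RNA was taken, so both groups stayed in glucose medium throughout. The matching libraries in 2% sucrose (3 of each strain) and the glucose libraries of a separate set (Gcn5m and Spt7m, which carry bromodomain mutants of Gcn5 and Spt7, also in SAGA, with their own WT) are used only to show where the comparison differs. The BY4741 background carries auxotrophic deletions, and the labels do not say how Ada3-3KR was built or whether it is 1 clone. Nor do they state whether the replicates come from separate cultures, and p-values then cover only the variation among these libraries, which could be technical. Of the 6101 genes in the table, 5830 with a mean of at least 1 FPKM (fragments scaled to gene length and to the mapped fragments of the library) were tested. A difference is Ada3-3KR minus WT on the log2(FPKM + 1) scale, given ± SE, and a gene was called where limma's adjusted p was under 0.05.

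SAGA is a large coactivator that RNA polymerase II genes use at their promoters. Its acetyltransferase module holds Gcn5, the enzyme that acetylates histone H3, with Ada2, Ada3 (the product of NGG1) and Sgf29, and Ada3 is needed for Gcn5 to work well on nucleosomes. The bromodomains of Gcn5 and Spt7 bind acetylated lysines, and Ada3 is itself acetylated. In glucose, yeast cells ferment, grow fast and devote much of their transcription to ribosomes, while genes for respiration, stress defence and the use of other sugars are held low.

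The 6 libraries fell clearly into their 2 groups. Across genes, log2(FPKM + 1) correlated at 0.9947 to 0.9963 among the Ada3-3KR libraries, at 0.9944 to 0.9966 among the WT libraries and at 0.9769 to 0.9822 between the groups, and the FPKM summed to between 1244178 and 1250182 in Ada3-3KR and between 1274641 and 1288949 in WT. NGG1 (YDR176W, chromosome IV, 814452 to 816560 in build R64) had 20.95, 22.1 and 21.5 FPKM in Ada3-3KR, against 17.3, 16.1 and 15.2 FPKM in WT, a difference of 0.39 ± 0.06. The labels name a change of the protein, so this RNA level does not check the genotype. The BY4741 markers MET17 and URA3 were at 0 in all 6 libraries, and LEU2 was at 0 in all but WT replicate 1, where it had 0.136 FPKM. HIS3, which is deleted in part in this background, had 119.6, 109 and 102 FPKM in Ada3-3KR, against 73.8, 71.6 and 78.2 FPKM in WT, a difference of 0.56 ± 0.06. MFA1, an a-factor gene of mating type a, had 2836, 3059 and 2803 FPKM in Ada3-3KR, against 4453, 4148 and 3787 FPKM in WT, and STE3, the a-factor receptor gene of the other mating type, read 1.88, 2.47 and 2.42 FPKM in Ada3-3KR and 2.97, 2.31 and 2.64 FPKM in WT. STE3 was low for its list. The 4 genes of the other mating type tested had a median of 16.5 FPKM in Ada3-3KR and 16.9 FPKM in WT, with 1 called higher and 1 lower. Of 28 mating type a and pheromone response genes tested, 8 were called higher (28.6%) and 9 lower (32.1%), against 40.2% and 22.1% of all genes.

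Most genes differed, and most of them by little. Of the 5830 genes tested, 2343 were called higher in Ada3-3KR (40.2%) and 1286 lower (22.1%), 62.2% in all, and the 3 libraries of each group did not overlap for 3856 genes (66.1%). The median over all genes tested was 0.09, and the median absolute difference of called genes was 0.33. With each library centred on its median gene, 1794 genes were called higher and 1689 lower, so the excess of higher genes depended on the scaling. Called differences of at least 2-fold numbered 144 (2.47%), 53 higher and 91 lower, and those of at least 1.5-fold numbered 290 higher and 373 lower. Calls of any size were mostly higher, while those of at least 2-fold were mostly lower. Gene lists are described below by counts of members called in each direction, to be read against 40.2% higher and 22.1% lower among all genes. For 1 gene alone, an exact test of 3 libraries against 3 cannot go below 0.1, so calls rest on the spread shared across genes.

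**Figure D1:**
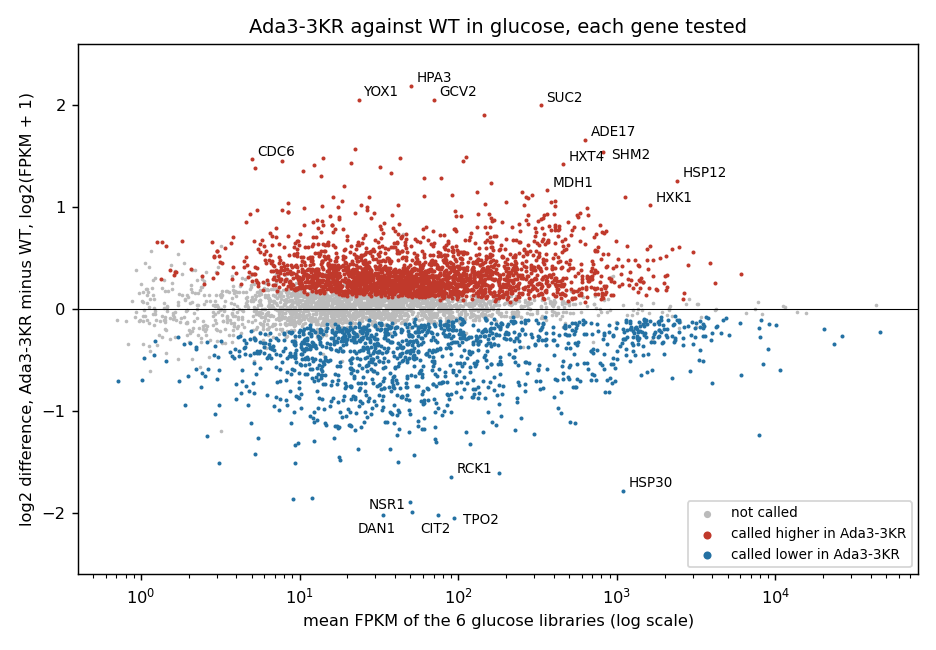
Difference in glucose (Ada3-3KR minus WT, log2(FPKM + 1)) against mean FPKM of the 6 libraries on a log scale, 1 point per gene tested, red where called higher in Ada3-3KR, blue where called lower and grey where not called. Called genes lie on both sides at all levels, and 3 genes (SER3, YIL177C and YRF1-6), which read near 0 in at least 1 library, lie outside the axis.

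Genes of SAGA itself moved little. In the acetyltransferase module NGG1 and GCN5 (the acetyltransferase, 0.25 ± 0.06) were higher. ADA2 read 15.7, 13.6 and 15.6 FPKM in Ada3-3KR, against 13.3, 12.5 and 13.9 FPKM in WT (adjusted p = 0.0768). SGF29 read 33.6, 33.1 and 31.7 FPKM in Ada3-3KR, against 32.1, 36.96 and 32.6 FPKM in WT (adjusted p = 0.55), and neither was called. Of the 11 genes of the core and TRA1, 4 were called higher and 1 lower. The scaffold gene HFI1, which encodes Ada1, stood at 14.01, 12.4 and 13.5 FPKM in Ada3-3KR, against 8.42, 9.96 and 9.05 FPKM in WT (0.50 ± 0.08), and the groups did not overlap. TRA1, the subunit that activators contact, fell by 0.31 to 111, 126 and 129 FPKM in Ada3-3KR, against 151, 151 and 151 FPKM in WT. SPT3, whose product binds TBP, was higher (0.31 ± 0.06), and so were the core subunit genes TAF5 (0.21 ± 0.05) and TAF12 (0.17 ± 0.05, adjusted p = 0.0513 with centred libraries). SPT7, SPT8, SPT20, TAF6, TAF9 and TAF10 were not called (adjusted p = 0.0702, 0.604, 0.241, 0.484, 0.0524 and 0.43). In the deubiquitinase module, UBP8, its enzyme, was called (0.24 ± 0.10) although its libraries overlapped, at 10.1, 12.1 and 11.7 FPKM in Ada3-3KR, against 10.2, 7.89 and 10.3 FPKM in WT, and its call was lost under 9 of 14 other settings, among them leaving out Ada3-3KR replicate 2 or 3 or WT replicate 2 (adjusted p = 0.128 to 0.241). SGF11, SGF73 and SUS1 were not called (adjusted p = 0.143, 0.122 and 0.652). Among 9 partners in SLIK, ADA and NuA4, 4 were called higher and 1 lower, with AHC2, a subunit of the ADA complex, highest at 165, 178 and 179.8 FPKM in Ada3-3KR, against 130.3, 138 and 124 FPKM in WT (0.41 ± 0.04), and only 1 higher with the libraries centred on the median gene.

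Sugar genes that glucose normally keeps low split, with a few far above WT. SUC2 (YIL162W, chromosome IX, 37385 to 38983) is the gene of invertase, the enzyme that cuts sucrose. It had 533, 501 and 559 FPKM in Ada3-3KR, against 136, 137 and 124 FPKM in WT, a difference of 2.00 ± 0.05, about 4-fold. Its promoter, with the letters searched for the repressor Mig1 in capitals (GCGGGG or its complement CCCCGC), runs at chrIX:36885-36964 on the plus strand as follows.
SUC2: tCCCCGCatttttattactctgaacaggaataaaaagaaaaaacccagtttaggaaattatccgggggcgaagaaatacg
Of the 21 invertase, maltose and other sugar genes tested, 8 were called higher (38.1%) and 4 lower (19.0%), near the shares of all genes. The isomaltase gene IMA5 stood at 6.83, 5.87 and 5.82 FPKM in Ada3-3KR, against 2.83, 3.29 and 2.74 FPKM in WT (0.86 ± 0.13), and the near-identical maltase genes MAL12 and MAL32, whose reads cannot be assigned to 1 of them with certainty, were higher by 0.82 ± 0.07 and 0.62 ± 0.09. The maltose transporter gene MAL31 read 63.8, 66.99 and 71.3 FPKM in Ada3-3KR, against 62.7, 72.2 and 64.2 FPKM in WT (adjusted p = 0.742), and the galactose genes GAL2, GAL3, GAL4, GAL10 and GAL80 were not called (adjusted p = 0.0667, 0.899, 0.66, 0.0557 and 0.0533). The letters GCGGGG stood within 500 bases before the start of 7 of the 21 genes (33.3%), against 5.79% of 5754 protein-coding promoters.

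Hexose transporter genes went both ways. HXT4, a high-affinity transporter gene, had 659.5, 667 and 669.9 FPKM in Ada3-3KR, against 242, 251 and 253 FPKM in WT (1.42 ± 0.03), the only member of its list that was at least 2-fold higher. HXT2, also a high-affinity transporter gene, was higher by 0.29 ± 0.03, and HXT7 by 0.25 ± 0.03. HXT1, the low-affinity transporter gene that high glucose induces, had 7.77, 7.48 and 8.32 FPKM in Ada3-3KR, against 15.8, 17.7 and 17.1 FPKM in WT (-1.01 ± 0.14), and each Ada3-3KR library lay below every WT library. HXT3, another low-affinity transporter gene, read 288, 284 and 283 FPKM in Ada3-3KR, against 287, 288 and 281 FPKM in WT, with no detectable difference (-0.00 ± 0.03, adjusted p = 0.968). Over the list, 6 of 20 members were called higher and 7 lower, a balance that tipped to 6 higher and 4 or 5 lower without Ada3-3KR replicate 1 or 2 or WT replicate 2. Among hexose kinase genes, HXK1, the isoenzyme that glucose represses, stood at 2172, 2138 and 2189 FPKM in Ada3-3KR, against 1056, 1088 and 1068 FPKM in WT (1.02 ± 0.03), and the glucokinase gene GLK1 (0.61 ± 0.04) and its relative EMI2 (0.86 ± 0.03) were also higher. The Mig repressor genes were all lower, MIG1 at 42.2, 48.2 and 42.7 FPKM in Ada3-3KR, against 56.2, 64.6 and 61.6 FPKM in WT (-0.45 ± 0.06), MIG2 by -0.43 ± 0.07 and MIG3 by -0.58 ± 0.09. SNF1, the kinase that opposes Mig1, was higher (0.26 ± 0.04), and so was its gamma subunit gene SNF4 (0.17 ± 0.04, a call lost with quantile normalization, adjusted p = 0.0682, and with centred libraries, 0.1), while TOS3, which encodes a kinase that activates Snf1, had 8.88, 11.4 and 10.5 FPKM in Ada3-3KR, against 20.2, 22.1 and 20.04 FPKM in WT (-0.96 ± 0.09).

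Respiratory genes were higher nearly without exception. The list of the respiratory chain and ATP synthase, which includes the regulator gene HAP4, held 38 genes tested. Of these, 36 were called higher and 1 lower, with a median of 0.77. Their summed FPKM was 16579 to 17031 in Ada3-3KR, against 10203 to 10341 in WT. INH1, which encodes the inhibitor of ATP synthase running backwards, had 406, 391 and 399 FPKM in Ada3-3KR, against 184, 186 and 179 FPKM in WT (1.12 ± 0.06). QCR2, a core subunit gene of the bc1 complex, had 344, 345 and 356 FPKM in Ada3-3KR, against 167, 171 and 174 FPKM in WT (1.02 ± 0.03), and every Ada3-3KR library was about 2-fold above every WT library. The cytochrome c gene CYC1 stood at 187, 175 and 167 FPKM in Ada3-3KR, against 89.9, 96.6 and 89.6 FPKM in WT (0.93 ± 0.05), the cytochrome c1 gene CYT1 was higher by 0.94 ± 0.03 and the ATP synthase stator gene ATP7 by 0.94 ± 0.04. NDE2, 1 of 2 external NADH dehydrogenase genes, had 36.2, 38.3 and 39.1 FPKM in Ada3-3KR, against 18.8, 17.4 and 15.2 FPKM in WT (1.10 ± 0.07), whereas the other, NDE1, was at the threshold (adjusted p = 0.0506). The member that fell was HAP4, the regulatory subunit of the activator of respiratory genes, at 88.4, 90.9 and 94.96 FPKM in Ada3-3KR, against 152, 164 and 159 FPKM in WT (-0.78 ± 0.04), so the activator's own RNA was lower while the genes it is known to switch on were higher.

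The citric acid cycle moved with the respiratory chain. Of 18 genes, 16 were called higher and 1 lower, with a median of 0.67. MDH1, the mitochondrial malate dehydrogenase gene, had 520.5, 481 and 504 FPKM in Ada3-3KR, against 218, 224 and 226 FPKM in WT (1.17 ± 0.04). The succinate dehydrogenase genes SDH1 (1.03 ± 0.04), SDH2 (0.93 ± 0.03) and SDH3 (0.92 ± 0.03) and the citrate synthase gene CIT1 (543, 555 and 559 FPKM in Ada3-3KR, against 312, 319.5 and 307 FPKM in WT, 0.82 ± 0.03) were also higher. CIT3 was not called, at 3.56, 4.42 and 3.30 FPKM in Ada3-3KR, against 5.84, 4.32 and 3.13 FPKM in WT (adjusted p = 0.346). Mitochondrial ribosomal protein genes shared the direction at a smaller size, with 60 of 68 called higher, none lower and a median of 0.30. The 60 included MRPL4 (38.4, 34.6 and 37.1 FPKM in Ada3-3KR, against 26.2, 26.01 and 26.6 FPKM in WT, 0.47 ± 0.07) and MRPS5 (0.46 ± 0.04), of the large and the small subunit of that ribosome.

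Gluconeogenesis and the glyoxylate cycle, which glucose also represses, moved far less. Of 22 genes, 8 were called higher and 1 lower, with a median of 0.11, near the 0.09 of all genes. The acetate transporter gene ADY2 had 26.8, 25.6 and 23.9 FPKM in Ada3-3KR, against 9.03, 13.1 and 13.2 FPKM in WT (1.06 ± 0.11), and the carnitine acetyltransferase gene CAT2 (0.82 ± 0.07) and the activator gene ADR1 (0.72 ± 0.05) were higher. PCK1, which encodes the key enzyme of gluconeogenesis, was lower at 6.57, 5.000 and 5.13 FPKM in Ada3-3KR, against 8.57, 6.84 and 7.14 FPKM in WT (-0.38 ± 0.09), while the glyoxylate cycle genes ICL1 and MLS1 were not called (adjusted p = 0.0603 and 0.0672). The lactate transporter gene JEN1 read 21.99, 22.9 and 22.7 FPKM in Ada3-3KR, against 20.4, 23.3 and 21.9 FPKM in WT (adjusted p = 0.468). CIT2, the peroxisomal citrate synthase gene and the standard reporter of the retrograde pathway from mitochondria to the nucleus, stood apart from the mitochondrial enzymes, with 28.3, 29.5 and 29.3 FPKM in Ada3-3KR, against 113, 124 and 125 FPKM in WT (-2.02 ± 0.04). DLD3, also a retrograde target, fell with it to 41.9, 46.7 and 47.1 FPKM in Ada3-3KR, against 82.5, 85.2 and 86.01 FPKM in WT (-0.89 ± 0.05). The mixed list of retrograde and anaplerotic genes ran the other way, with 10 of 15 higher and 2 lower, those 2 being CIT2 and DLD3. Only 5 of the 15 had GGTCAC, the core of the retrograde factors Rtg1 and Rtg3, or its complement in their promoters. Of these 5, 2 were higher and 2 lower, with a median of -0.01.

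**Figure D2:**
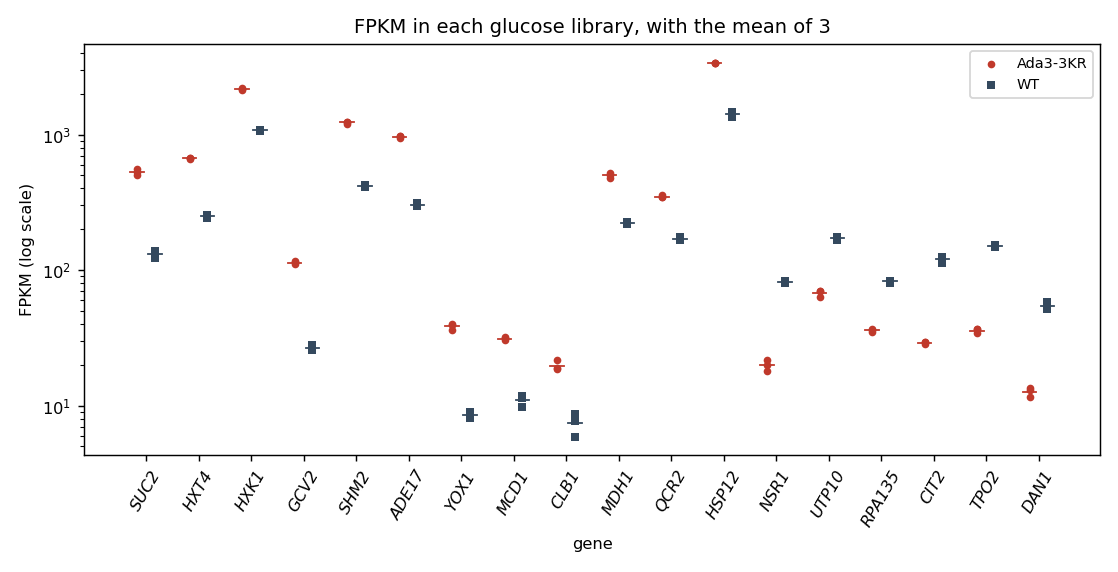
FPKM on a log scale of 18 genes in each glucose library, Ada3-3KR as red circles and WT as dark squares, with the mean of the 3 libraries as a line. The 3 libraries of a group sit close together, and the groups do not overlap for any of the 18 genes.

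General stress genes, which the activators Msn2 and Msn4 switch on, were higher. Of 48 tested, 41 were called higher and 2 lower, with a median of 0.51, and their summed FPKM was 30793 to 31397 in Ada3-3KR, against 21597 to 22055 in WT. HSP12, a small heat shock protein gene, had 3379, 3347 and 3388 FPKM in Ada3-3KR, against 1456, 1351 and 1426 FPKM in WT (1.26 ± 0.04). GDB1, for the glycogen debranching enzyme, had 110.2, 108 and 114 FPKM in Ada3-3KR, against 43.9, 46.1 and 44.7 FPKM in WT (1.28 ± 0.04). GPH1, for the enzyme of glycogen breakdown, had 505, 520.2 and 529 FPKM in Ada3-3KR, against 247, 253 and 247 FPKM in WT (1.05 ± 0.03), and GLG2, which primes glycogen synthesis, was higher by 0.97 ± 0.08. ALD3, a cytosolic aldehyde dehydrogenase gene whose near-identical copy ALD2 makes its reads uncertain, was higher by 1.29 ± 0.07, and PRX1, the mitochondrial peroxiredoxin gene, by 1.05 ± 0.04. The 2 lower members were regulators, the activator gene MSN4 at 63.3, 66.4 and 63.05 FPKM in Ada3-3KR, against 100.1, 114 and 104 FPKM in WT (-0.71 ± 0.05) and the repressor gene XBP1 (-0.57 ± 0.04), and MSN2 was not called (adjusted p = 0.498). The stress response element, AGGGG or its complement CCCCT, stood within 500 bases before 41 of the 48 genes (85.4%), against 34.2% of all promoters. It is shown in capitals in the stretches below, from chrVI:106810-106889 on the plus strand, chrXVI:901815-901894 on the plus strand and chrXIII:601069-601148 on the minus strand, for the 3 members with the largest differences.
HSP12: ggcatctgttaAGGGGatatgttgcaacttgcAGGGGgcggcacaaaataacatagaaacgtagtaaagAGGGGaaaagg
GDB1: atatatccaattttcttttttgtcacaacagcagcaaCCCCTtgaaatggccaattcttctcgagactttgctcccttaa
ALD3: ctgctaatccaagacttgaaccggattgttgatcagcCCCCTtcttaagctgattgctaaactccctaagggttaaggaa
Among all promoters, 45.7% of genes with these letters were called higher and 20.3% lower, against 37.9% and 22.9% of genes without them. Of 28 thioredoxin and peroxiredoxin genes and Yap1 targets, listed together with other oxidative stress genes, 20 were higher and 3 lower, among them the mitochondrial superoxide dismutase gene SOD2 (452, 441 and 435 FPKM in Ada3-3KR, against 266, 286 and 287 FPKM in WT, 0.66 ± 0.04). Heat shock chaperone genes did not move as a block, with 16 of 33 higher, 6 lower and a median of 0.10. SSA4, an inducible Hsp70 gene, was higher (513, 526 and 555 FPKM in Ada3-3KR, against 279, 289 and 267 FPKM in WT, 0.93 ± 0.06). SSB1, an Hsp70 gene that works at the ribosome and has a close copy in SSB2, was lower (7966, 7768 and 7643 FPKM in Ada3-3KR, against 10361, 10151 and 10185 FPKM in WT, -0.39 ± 0.02). HSP30, a plasma membrane heat shock gene, fell to 485, 521 and 477 FPKM in Ada3-3KR, against 1680.01, 1710.03 and 1707 FPKM in WT (-1.78 ± 0.04).

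Genes that build ribosomes were lower almost throughout. Of 134 ribosome biogenesis factors, none was called higher and 123 were called lower, with a median of -0.72, and their summed FPKM was 5448 to 5713 in Ada3-3KR, against 8726 to 9032 in WT. The nucleolin gene NSR1 (YGR159C) had 18.1, 21.8 and 19.98 FPKM in Ada3-3KR, against 83.2, 83.7 and 80.1 FPKM in WT (-1.99 ± 0.07). HCA4, an RNA helicase gene of the small subunit pathway, had 7.90, 10.04 and 9.50 FPKM in Ada3-3KR, against 26.1, 26.6 and 27.01 FPKM in WT (-1.45 ± 0.09). UTP10, a gene of the complex that processes the small subunit's rRNA, had 63.6, 69.5 and 69.9 FPKM in Ada3-3KR, against 166, 174 and 174 FPKM in WT (-1.33 ± 0.05). The export factor gene RRP12 (-1.34 ± 0.09), the large subunit assembly gene RPF2 (-1.24 ± 0.07), UTP20 (-1.30 ± 0.06), KRI1 (-1.17 ± 0.06) and RRP5 (-1.17 ± 0.05) also fell. Of the rest, 11 members were not called. In all, 24 members were at least 2-fold lower and 85 at least 1.5-fold lower. The PAC box core, GATGAG or its complement CTCATC, stood within 500 bases before 119 of the 134 genes (88.8%), against 28.3% of all promoters, and the rRNA processing element core, AAATTTT or its complement, before 127 (94.8%), against 34.5%. The PAC box is in capitals in the stretches below for the 3 members that fell most, from chrVII:807801-807880 on the minus strand, chrX:383714-383793 on the plus strand and chrXVI:529520-529599 on the plus strand.
NSR1: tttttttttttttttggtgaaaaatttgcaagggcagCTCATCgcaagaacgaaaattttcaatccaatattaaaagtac
HCA4: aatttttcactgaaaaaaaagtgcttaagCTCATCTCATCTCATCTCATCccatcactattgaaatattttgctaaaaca
RRP12: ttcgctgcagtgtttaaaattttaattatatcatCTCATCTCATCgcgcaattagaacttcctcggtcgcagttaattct
Over all promoters, genes with GATGAG were called higher in 30.4% of cases and lower in 33.0%, against 44.6% and 17.7% without it. The letters are short and the PAC and rRNA processing cores occur together in many of these promoters, so a match marks letters only.

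Genes of RNA polymerases I and III, which make rRNA, tRNA and other small RNAs, and of their factors were mixed, with 21 of 41 lower, 10 higher and a median of -0.28. The largest falls included RPA135, which encodes 1 of the 2 core subunits of RNA polymerase I and had 36.1, 34.96 and 36.8 FPKM in Ada3-3KR, against 80.9, 82.9 and 83.7 FPKM in WT (-1.18 ± 0.04). RPA190, for the other, had 21.3, 21.00 and 22.3 FPKM in Ada3-3KR, against 46.8, 48.99 and 47.2 FPKM in WT (-1.11 ± 0.05), and the groups did not overlap for either. The subunit genes RPA43 (-0.87 ± 0.05), RPA34 (-0.86 ± 0.08) and RPA49 (-0.85 ± 0.06) and the RNA polymerase III genes RPC31 (-0.90 ± 0.07) and RET1 (-0.77 ± 0.05) were lower too. One of the higher genes was RRN11, of the RNA polymerase I core factor (1.89, 2.85 and 2.59 FPKM in Ada3-3KR, against 1.04, 1.35 and 1.09 FPKM in WT, 0.67 ± 0.16).

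Cytosolic ribosomal protein genes fell by less. Of 81 large subunit genes, 71 were called lower and none higher (median -0.23), and of 56 small subunit genes, 47 were called lower and none higher (median -0.26). They took 10.84 to 10.97% of the FPKM in Ada3-3KR and 12.2 to 12.6% in WT for the large subunit, and 7.71 to 7.83% in Ada3-3KR and 8.58 to 9.01% in WT for the small subunit. The largest falls were in copies of duplicated genes. RPL33B had 378, 405 and 399.5 FPKM in Ada3-3KR, against 689, 665 and 652 FPKM in WT (-0.76 ± 0.05), and RPL27B (-0.70 ± 0.04) and RPL31B (-0.69 ± 0.05) also fell. RPS9A, whose reads may be shared with RPS9B, had 132, 139.5 and 134 FPKM in Ada3-3KR, against 233, 231 and 220.03 FPKM in WT (-0.75 ± 0.06). Of the 15 regulators of these genes, 4 were higher and 2 lower, a balance that turned to 2 higher and 3 lower with centred libraries (3 of each with median rescaling). TOD6, which encodes a repressor that binds the PAC box, had 4.27, 5.97 and 5.48 FPKM in Ada3-3KR, against 14.96, 13.4 and 14.8 FPKM in WT (-1.31 ± 0.09), and its relative DOT6 fell by 0.34. RAP1 was higher (0.40 ± 0.06), while IFH1 and SFP1, activators of ribosomal protein genes, were not called (adjusted p = 0.469 and 0.371).

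**Figure D3:**
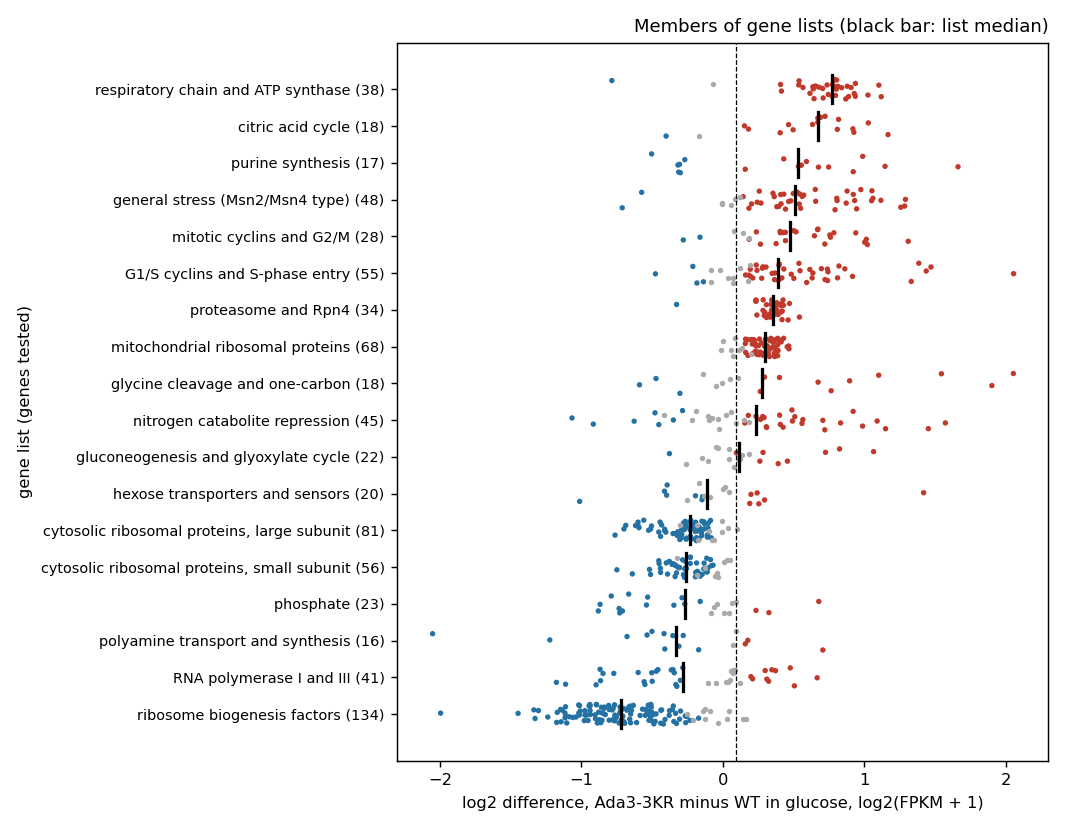
Difference in glucose (Ada3-3KR minus WT, log2(FPKM + 1)) of each tested member of 18 gene lists, red where called higher, blue where called lower and grey where not called. The black bar is the list median and the dashed line the median of all genes (0.09), and medians run between 0.77 for the respiratory chain and -0.72 for ribosome biogenesis factors.

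Proteasome genes were higher as a tight group. Of 34, 33 were called higher and 1 lower, with a median of 0.36 and no member above 0.54. PRE3, a catalytic subunit gene, had 322, 317 and 328 FPKM in Ada3-3KR, against 223, 222 and 219 FPKM in WT (0.54 ± 0.03), and the ATPase genes RPT4 and RPT5 were higher by 0.47 ± 0.03 and 0.46 ± 0.04. The lower member was RPN4, the activator of proteasome genes, at 62.8, 66.3 and 65.6 FPKM in Ada3-3KR, against 81.6, 79.8 and 83.7 FPKM in WT (-0.33 ± 0.04).

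Cell cycle genes of G1/S and of mitosis were both higher. In RNA from a whole culture, a larger share of cells in a phase and more RNA per cell in that phase cannot be told apart, and the same holds for every list described here. Of 55 genes of the G1/S transition and S-phase entry, 42 were called higher and 4 lower, with a median of 0.39. YOX1 (YML027W), a homeodomain repressor gene, had 40.2, 39.1 and 36.4 FPKM in Ada3-3KR, against 8.05, 9.01 and 8.52 FPKM in WT (2.05 ± 0.07). The cohesin subunit gene MCD1 had 30.5, 31.3 and 31.9 FPKM in Ada3-3KR, against 11.3, 11.7 and 9.79 FPKM in WT (1.44 ± 0.07). The replication licensing gene CDC6 had 6.79, 8.43 and 8.29 FPKM in Ada3-3KR, against 2.02, 1.84 and 2.74 FPKM in WT (1.47 ± 0.14). Each Ada3-3KR library lay above every WT library for these genes, and likewise for the G1 cyclin gene PCL1, at 55.4, 51.9 and 56.4 FPKM in Ada3-3KR, against 20.4, 22.02 and 20.9 FPKM in WT (1.33 ± 0.07). The S-phase cyclin genes CLB6 (1.38 ± 0.15) and CLB5 (0.86 ± 0.08) and the ribonucleotide reductase gene RNR1 (133, 132 and 142 FPKM in Ada3-3KR, against 69.6, 72.5 and 72.2 FPKM in WT, 0.92 ± 0.04) were higher as well. CLN3, the cyclin gene that starts the G1/S programme, was lower at 33.3, 35.3 and 34.7 FPKM in Ada3-3KR, against 46.7, 48.6 and 49.7 FPKM in WT (-0.48 ± 0.04), and the G1 cyclin gene CLN2 was not called (adjusted p = 0.153). The MluI cell cycle box, ACGCGT, stood before 31 of the 55 genes (56.4%), against 5.49% of all promoters. It is in capitals below for 3 of the members that rose most, from chrXIII:220906-220985, chrIV:444354-444433 and chrX:69097-69176, all on the plus strand.
YOX1: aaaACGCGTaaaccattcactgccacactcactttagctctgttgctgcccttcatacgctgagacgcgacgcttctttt
MCD1: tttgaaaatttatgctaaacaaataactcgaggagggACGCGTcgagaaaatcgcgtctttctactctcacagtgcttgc
CDC6: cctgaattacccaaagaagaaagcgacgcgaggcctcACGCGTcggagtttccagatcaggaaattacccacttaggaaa
Over all promoters, 53.2% of the 316 genes with ACGCGT were called higher and 16.5% lower, against 39.8% and 22.4% of the others.

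Of 28 genes of mitosis and the mitotic cyclins, 23 were called higher and 2 lower, with a median of 0.47. CLB1, a mitotic cyclin gene, had 19.01, 21.6 and 18.5 FPKM in Ada3-3KR, against 5.92, 7.68 and 8.64 FPKM in WT (1.31 ± 0.10). SWI5, which encodes an activator of the next G1 phase, had 30.4, 28.8 and 29.7 FPKM in Ada3-3KR, against 14.7, 15.4 and 14.9 FPKM in WT (0.94 ± 0.06). The Polo kinase gene CDC5 was higher by 0.76 ± 0.07. The lower members were FKH2 (-0.28 ± 0.06) and MCM1 (-0.16 ± 0.06), which encode the factors that switch on this group, while FKH1 was higher (1.00 ± 0.09). MCM1 had overlapping libraries and lost its call without Ada3-3KR replicate 2 or 3 or WT replicate 2 or 3 (adjusted p = 0.0841 to 0.154). Genes of the M/G1 boundary did not share this direction, with 7 of 26 higher and 10 lower. PIR3 (-0.75 ± 0.05), HSP150 (3066, 2998 and 2954 FPKM in Ada3-3KR, against 4854, 4902 and 5169 FPKM in WT, -0.73 ± 0.03) and ASH1 (-0.61 ± 0.05) were lower, the first 2 for cell wall proteins and the last for a repressor in daughter cells. Of 10 histone genes, 9 were higher and 1 lower (median 0.31). HHO1, the linker histone gene, had 207, 208 and 214 FPKM in Ada3-3KR, against 112, 119 and 114 FPKM in WT (0.86 ± 0.04), HTB2 was higher by 0.42 ± 0.04, and HTA1 was lower by a small margin (-0.10 ± 0.03), a call lost without Ada3-3KR replicate 1 or WT replicate 1 or 2 (adjusted p = 0.052 to 0.0767) and with quantile normalization (0.409), and HTA1 and HTA2 are near-identical copies.

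Purine synthesis genes were split by step. Of 17 genes, 11 were called higher and 6 lower, with a median of 0.53. The ADE genes of the pathway to IMP were higher. ADE17, for the last steps, had 945, 974 and 971 FPKM in Ada3-3KR, against 298, 313 and 301 FPKM in WT (1.66 ± 0.03). ADE2 had 341, 355 and 352 FPKM in Ada3-3KR, against 153, 162 and 157 FPKM in WT (1.15 ± 0.03). ADE1 had 843, 882 and 859 FPKM in Ada3-3KR, against 424, 449.6 and 428 FPKM in WT (0.99 ± 0.03), and the libraries of Ada3-3KR and WT did not overlap for any of these. ADE13 (0.92 ± 0.03), ADE6 (0.75 ± 0.03), ADE5,7 (0.68 ± 0.03), ADE8 (0.59 ± 0.03) and ADE4 (0.55 ± 0.05) were also higher. The 6 lower members were the activator gene BAS1 (-0.32 ± 0.07) and all 5 genes for the enzymes that make PRPP, the pathway's substrate, from PRS4 (-0.50 ± 0.04) to PRS2 (-0.27 ± 0.04). Genes of purine salvage and GMP synthesis, taken as 1 list, ran the other way, with 8 of 12 lower and 1 higher, among them the adenine deaminase gene AAH1 at 33.6, 36.9 and 35.9 FPKM in Ada3-3KR, against 77.1, 77.2 and 76.05 FPKM in WT (-1.09 ± 0.05).

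Glycine cleavage genes, which share the activator Bas1 with the ADE genes, were also higher. GCV2 (YMR189W) had 110.2, 114 and 116 FPKM in Ada3-3KR, against 25.7, 28.1 and 26.01 FPKM in WT (2.05 ± 0.04). GCV1, like GCV2 a subunit gene of the glycine cleavage complex, had 221, 239 and 228 FPKM in Ada3-3KR, against 60.5, 59.5 and 62.03 FPKM in WT (1.90 ± 0.04). The cytosolic serine hydroxymethyltransferase gene SHM2 had 1201, 1241 and 1239.8 FPKM in Ada3-3KR, against 410.1, 424 and 426 FPKM in WT (1.54 ± 0.03). The folate enzyme genes MTD1 (1.10 ± 0.03) and ADE3 (0.67 ± 0.04), and GCV3 (0.90 ± 0.04) and LPD1 (0.76 ± 0.03) of the glycine cleavage complex, were higher. The mitochondrial counterpart of SHM2, SHM1, was not called (223, 223 and 223 FPKM in Ada3-3KR, against 217, 214 and 217 FPKM in WT, adjusted p = 0.208). In the whole one-carbon list, 10 of 18 were higher and 3 lower, and the folate synthesis gene FOL1 fell to 9.22, 9.12 and 8.89 FPKM in Ada3-3KR, against 14.6, 14.6 and 13.3 FPKM in WT. The core that Bas1 and Gcn4 both bind, TGACTC or its complement GAGTCA, stood before 9 of the 17 purine genes (52.9%), all 9 of them called higher with a median of 0.75, and before 11 of the 18 one-carbon genes (61.1%), of which 7 were called higher and 2 lower, against 12.8% of all promoters. It is in capitals below, from chrXIII:509415-509494 on the minus strand, chrI:169117-169196 on the plus strand, chrXIII:637204-637283 on the plus strand and chrXII:259611-259690 on the minus strand.
ADE17: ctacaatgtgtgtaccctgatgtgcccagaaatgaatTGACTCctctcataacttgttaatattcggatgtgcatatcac
ADE1: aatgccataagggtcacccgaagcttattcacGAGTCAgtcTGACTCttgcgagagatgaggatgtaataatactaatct
GCV2: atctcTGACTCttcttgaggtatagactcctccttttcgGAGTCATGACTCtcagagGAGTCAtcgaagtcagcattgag
SHM2: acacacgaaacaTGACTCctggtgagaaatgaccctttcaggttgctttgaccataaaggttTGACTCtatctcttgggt
The letters alone did not mark higher genes, since 42.3% of all genes with TGACTC were called higher and 20.8% lower, against 40.3% and 22.2% without it. Of 39 genes of Gcn4-type amino acid synthesis, 27 had the letters, and 18 of the 39 were higher and 9 lower.

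Nitrogen genes rose in part. Of 45 genes under nitrogen catabolite repression, 25 were called higher and 7 lower, with a median of 0.23. DUR1,2, the urea amidolyase gene, had 35.6, 32.1 and 34.3 FPKM in Ada3-3KR, against 10.4, 10.7 and 11.2 FPKM in WT (1.57 ± 0.06). GAP1, the general amino acid permease gene, had 156, 159 and 157 FPKM in Ada3-3KR, against 55.4, 57.5 and 58.02 FPKM in WT (1.45 ± 0.04). The arginine breakdown genes CAR1 (385, 375 and 362 FPKM in Ada3-3KR, against 171, 180.2 and 174 FPKM in WT, 1.09 ± 0.04) and CAR2 (1.15 ± 0.05), the ammonium permease gene MEP2 (0.92 ± 0.08) and the allantoin gene DAL3 (0.99 ± 0.10) were higher. BAP2, a branched-chain amino acid permease gene, fell to 158, 160.2 and 166 FPKM in Ada3-3KR, against 322, 352 and 344 FPKM in WT (-1.07 ± 0.04), and the proline oxidase gene PUT1 fell by 0.92. The GATA factor core, GATAAG or its complement CTTATC, stood before 29 of the 45 genes (64.4%), against 22.7% of all promoters, and is in capitals below for the 2 members that rose most, from chrII:642631-642710 on the minus strand and chrXI:514708-514787 on the plus strand.
DUR1,2: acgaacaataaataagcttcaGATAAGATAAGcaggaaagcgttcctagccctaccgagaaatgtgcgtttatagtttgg
GAP1: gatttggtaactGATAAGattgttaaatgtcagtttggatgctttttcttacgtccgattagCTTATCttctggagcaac
Methionine and sulfate genes also leaned upward, with 17 of 32 higher and 6 lower. The methionine synthase gene MET6 had 218, 234 and 226 FPKM in Ada3-3KR, against 94.5, 95.8 and 94.7 FPKM in WT (1.24 ± 0.04), and the high-affinity methionine permease gene MUP1 was higher by 0.73 ± 0.05 while the low-affinity gene MUP3 was lower (-0.52 ± 0.08). Genes of leucine, isoleucine and valine synthesis were mostly lower, 9 of 12 against 1 higher. ILV2 (128, 125 and 137 FPKM in Ada3-3KR, against 172, 175 and 173 FPKM in WT, -0.41 ± 0.04), for the first common step, and the mitochondrial aminotransferase gene BAT1 (-0.39 ± 0.03) fell, while the cytosolic aminotransferase gene BAT2 was the higher one (0.55 ± 0.04).

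Polyamine, phosphate and low-oxygen genes were mostly lower. Of 16 polyamine genes, 11 were called lower and 3 higher. The exporter gene TPO2 had 36.5, 34.2 and 36.8 FPKM in Ada3-3KR, against 147, 154 and 153 FPKM in WT (-2.05 ± 0.06). TPO3, a near-identical copy of TPO2, had 173, 181 and 186 FPKM in Ada3-3KR, against 407, 442 and 417 FPKM in WT (-1.22 ± 0.04). TPO4 (-0.54 ± 0.05) and TPO1 (-0.41 ± 0.06), which also encode exporters, and OAZ1 (-0.68 ± 0.08), which encodes antizyme, were lower, whereas DUR3, a urea and polyamine importer gene, was higher (9.01, 9.89 and 8.28 FPKM in Ada3-3KR, against 6.13, 4.38 and 5.07 FPKM in WT, 0.71 ± 0.10). Of 23 phosphate genes, 13 were lower and 3 higher, with a median of -0.27. The acid phosphatase gene PHO5 had 173, 166 and 159.8 FPKM in Ada3-3KR, against 305, 303 and 304 FPKM in WT (-0.87 ± 0.03). PHO84, for the high-affinity transporter of phosphate, had 248, 245 and 256 FPKM in Ada3-3KR, against 399, 418 and 409.6 FPKM in WT (-0.71 ± 0.04). It overlaps a noncoding gene, and whether reads were counted by strand is not given in the sources used here. PHM6 (-0.88 ± 0.09) and PHO89 (-0.67 ± 0.05) were lower with them, and VTC5, of the polyphosphate polymerase, was higher (0.68 ± 0.05). Of 27 low-oxygen genes, 15 were lower and 2 higher. DAN1, a cell wall mannoprotein gene, had 13.03, 13.4 and 11.5 FPKM in Ada3-3KR, against 51.9, 52.8 and 58.2 FPKM in WT (-2.02 ± 0.08). The sterol uptake regulator gene SUT1 had 12.6, 12.5 and 12.6 FPKM in Ada3-3KR, against 32.5, 36.2 and 33.97 FPKM in WT (-1.38 ± 0.06). TIR4, another mannoprotein gene, and UPC2, for an activator of sterol and anaerobic genes, fell by 0.64 and 0.56. CYC7, the cytochrome c isoform of low oxygen, was higher (475, 497 and 480.2 FPKM in Ada3-3KR, against 293, 287 and 267 FPKM in WT, 0.78 ± 0.05).

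Of the 144 called genes that differed at least 2-fold, 78 were in 1 of the gene lists. HPA3 and SER3, below, belong to lists not described so far, and the other genes of this paragraph to none. HPA3, a D-amino acid acetyltransferase gene that overlaps YEL067C, had 91.4, 80.5 and 77.4 FPKM in Ada3-3KR, against 18.6, 15.8 and 17.9 FPKM in WT (2.19 ± 0.08). UPS2, a gene for lipid transfer in mitochondria, had 171, 160.2 and 166 FPKM in Ada3-3KR, against 54.6, 59.1 and 60.8 FPKM in WT (1.495). RGI2, needed for respiratory growth, had 19.5, 22.4 and 21.9 FPKM in Ada3-3KR, against 7.36, 7.01 and 6.47 FPKM in WT (1.49 ± 0.08). The aromatic aminotransferase gene ARO9 (61.8, 64.8 and 64.7 FPKM in Ada3-3KR, against 22.2, 20.8 and 23.5 FPKM in WT, 1.48 ± 0.05) was also higher. Among falls, RCK1, a protein kinase gene of the oxidative stress response, had 44.2, 45.1 and 40.4 FPKM in Ada3-3KR, against 137, 136 and 139 FPKM in WT (-1.64 ± 0.05). BAG7, which encodes a GTPase-activating protein for Rho1, had 19.5, 22.4 and 22.2 FPKM in Ada3-3KR, against 61.3, 64.9 and 59.95 FPKM in WT (-1.50 ± 0.06). SPO24 (-1.61 ± 0.05), YBR056W-A (-1.90 ± 0.05), BSC1 (-1.86 ± 0.14), PRM7 (-1.48 ± 0.08) and the cell wall sensor gene MTL1 (-1.44 ± 0.06) fell too. SER3, a serine synthesis gene that overlaps a noncoding gene, had the largest fitted difference among called genes, but read 495, 511 and 519.7 FPKM in Ada3-3KR, against 201, 0.451 and 0.521 FPKM in WT, and its difference (6.06 ± 2.50) lost its call without any 1 of the Ada3-3KR libraries or without WT replicate 2 or 3 (adjusted p = 0.092 to 0.157).

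Each Ada3-3KR library showed the list differences on its own. Against the mean of the WT libraries, the median ribosome biogenesis factor lay at -0.80, -0.68 and -0.71 in the 3 Ada3-3KR libraries, the median respiratory gene at 0.74, 0.74 and 0.78 and the median stress gene at 0.50, 0.51 and 0.50. The median of all genes lay at 0.05, 0.10 and 0.12, and the WT libraries lay within 0.05 of their mean for each of these lists.

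**Figure D4:**
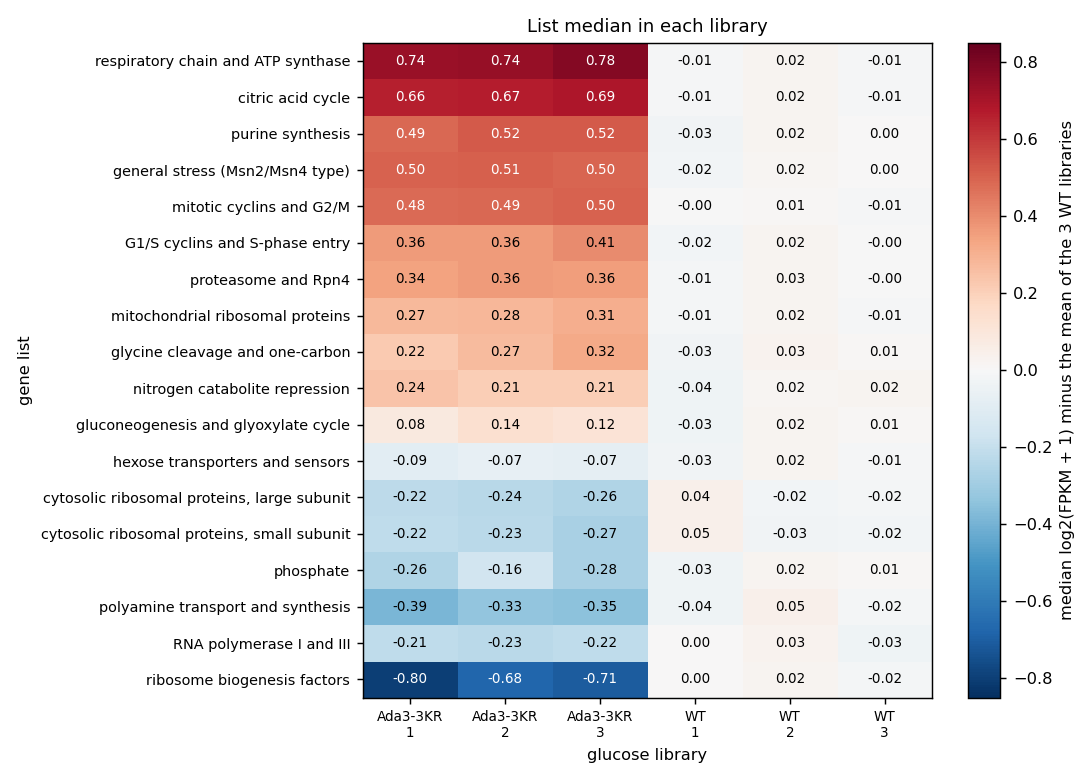
Median log2(FPKM + 1) of each of 18 gene lists in each glucose library, minus the mean of the 3 WT libraries, with Ada3-3KR in the left 3 columns and WT in the right 3, red above and blue below 0. The 3 Ada3-3KR columns share a sign in every row, from 0.78 for respiratory genes to -0.80 for ribosome biogenesis factors, and the WT columns lie within 0.05 of 0.

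The strain difference depended on the medium for many genes. In sucrose, 33.8% of genes were called higher in Ada3-3KR than in WT and 22.2% lower, or 1579 higher and 1649 lower with centred libraries. The glucose and sucrose differences share no library and correlated over 5830 genes at r = 0.57 (Spearman's rho = 0.54), as a description across genes, which are not independent replicates. Of the genes higher in glucose, 1361 (58.1%) were also higher in sucrose, and of those higher in sucrose, 69.2% were also higher in glucose. Of the genes lower in glucose, 705 (54.8%) were lower in sucrose, and of those lower in sucrose, 54.5% were lower in glucose. The difference in glucose minus that in sucrose was itself called positive for 1262 genes (21.6%) and negative for 1002 (17.2%), or 1027 and 1326 with each library rescaled to its median. Of the 3629 genes called in glucose, 1811 (49.9%) had such a called difference between media, and 365 were called in opposite directions.

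SUC2 in sucrose had 1019, 1074 and 1037 FPKM in Ada3-3KR, against 1134, 1089 and 1062 FPKM in WT (-0.07 ± 0.05, adjusted p = 0.224), and its difference in glucose was larger than that in sucrose by 2.07 ± 0.07. The fall of ribosome biogenesis factors was larger in glucose, more negative there for 125 of 134 and more positive for none, and in sucrose 60 were lower, 30 higher and the median was -0.10. NSR1, for example, had 63.3, 74.2 and 74.7 FPKM in Ada3-3KR in sucrose, against 70.9, 77.3 and 74.5 FPKM in WT (adjusted p = 0.408). General stress genes were more positive in glucose for 44 of 48 and more negative for none, and in sucrose 15 were higher and 23 lower, with a median of -0.07. FMP45, a stress gene for a cell cortex protein, went opposite ways, 1.12 ± 0.07 in glucose and -0.64 ± 0.07 in sucrose. Respiratory genes kept their direction, with 33 of 38 called higher in both media, but 33 were more positive in glucose and none more negative, and the sucrose median was 0.46. Of gluconeogenesis genes, 18 of 22 were lower and 2 higher in sucrose, and 17 were more positive in glucose.

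Some lists kept their direction in both media. Proteasome genes were higher in both media for 32 of 34, with 4 more positive and 2 more negative in glucose. G1/S genes were higher in both for 40 of 55, and 16 were more negative in glucose against 1 more positive. YOX1, for example, was higher by 2.05 ± 0.07 in glucose and 2.66 ± 0.07 in sucrose. Mitotic genes were higher in both for 23 of 28, with 4 more negative and none more positive in glucose. Others did not keep it, or had no direction of their own in glucose. Genes of RNA polymerases I and III were 10 higher and 21 lower in glucose, and 18 higher and 9 lower in sucrose. M/G1 genes were 7 higher and 10 lower in glucose, and 16 higher and 7 lower in sucrose. The sugar genes listed with SUC2 were near the shares of all genes in glucose (40.2% higher and 22.1% lower), with 8 of 21 higher (38.1%) and 4 lower (19.0%). In sucrose 3 of them were higher and 8 lower. Leucine, isoleucine and valine genes were 1 higher and 9 lower in glucose, and 4 higher and 2 lower in sucrose, or 2 higher and 5 lower there with centred libraries. Of 68 mitochondrial ribosomal protein genes, 12 were higher and 5 lower in sucrose (5 and 10 with centred libraries). GAP1 and DUR1,2 differed by more in sucrose (2.02 ± 0.04 and 2.18 ± 0.06), and CIT2 did so downward (-4.03 ± 0.04). TOD6 was lower in glucose and higher in sucrose (0.33 ± 0.09).

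**Figure D5:**
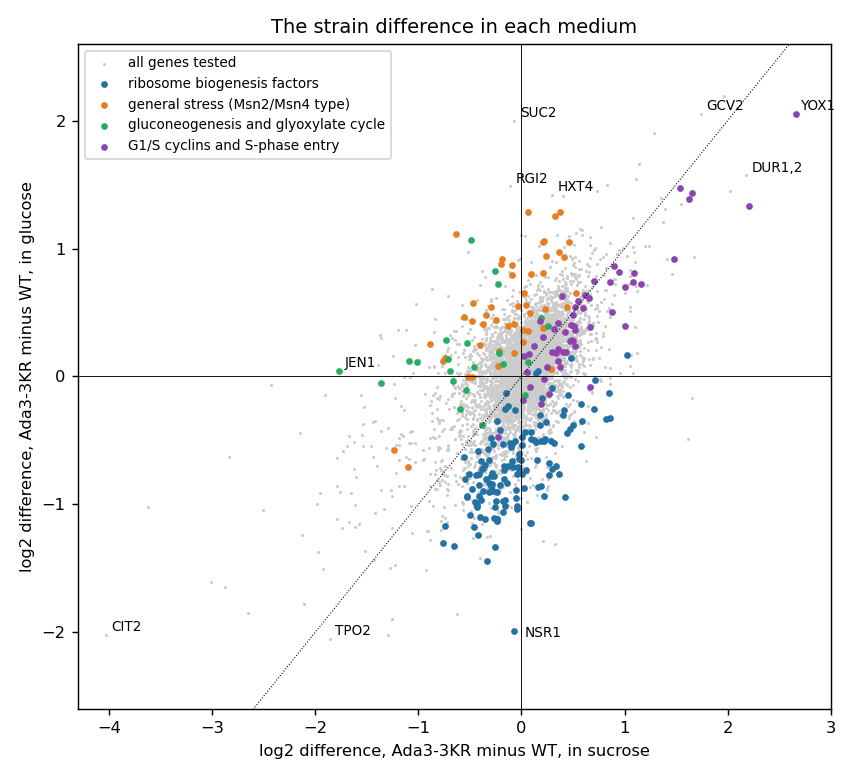
Difference between Ada3-3KR and WT in glucose (vertical) against that in sucrose (horizontal), both on the log2(FPKM + 1) scale, 1 point per gene tested, with 4 gene lists in colour and a dotted line where both are equal. Ribosome biogenesis factors lie mostly below the line and general stress genes mostly above it, and SER3, YIL177C and YRF1-6 lie outside the axes, while G1/S genes lie mostly in the upper right with YOX1 farthest out.

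The bromodomain mutants were measured in a separate table against a WT of their own, which both mutants share. Both mutants also differed from that WT in a BY4741 marker. Of 2 markers tested, 1 was called higher in each mutant, and HIS3 was not called (0.14 in Gcn5m and -0.12 in Spt7m). The median of the 2 markers was 4.17 in Gcn5m and 6.34 in Spt7m. A median of 2 values lies midway between them, so the other marker differed by more than these medians. With centred libraries both markers were called higher in Gcn5m, and 1 of 2 in Spt7m. In Gcn5m in glucose, 20.8% of genes were called higher and 41.2% lower, and in Spt7m 15.7% higher and 37.5% lower, but with centred libraries the counts were 1794 higher and 1705 lower in Gcn5m and 1532 higher and 1180 lower in Spt7m. Over 5817 genes the Ada3-3KR difference correlated with that of Gcn5m at r = 0.11 (rho = 0.15) and with that of Spt7m at r = 0.03 (rho = 0.06), again as a description across genes. Of the genes higher in Ada3-3KR, 842 (36.0%) were lower and 646 (27.6%) higher in Gcn5m. Of those lower in Ada3-3KR, 724 (56.3%) were also lower in Gcn5m and 207 (16.1%) higher. Several lists went the way they did in Ada3-3KR. Of 134 ribosome biogenesis factors, 123 were lower in Ada3-3KR, 118 in Gcn5m and 90 in Spt7m. With centred libraries, 97 of them were lower and 2 higher in Gcn5m, and 51 lower and 13 higher in Spt7m. Of 68 mitochondrial ribosomal protein genes, 60 were higher in Ada3-3KR, 67 in Gcn5m and 63 in Spt7m. Of 34 proteasome genes, 33 were higher in Ada3-3KR, 30 in Gcn5m and 24 in Spt7m. Of 81 large subunit ribosomal protein genes, 71 were lower in Ada3-3KR and 51 in Gcn5m, or 31 lower and 10 higher in Gcn5m with centred libraries. In Spt7m 33 of the 81 were lower, but their median of -0.104 was close to that of all genes (-0.103). With centred libraries Spt7m had 6 lower and 9 higher, so this list did not share the direction there. Other lists were called mostly the opposite way. Of 38 respiratory genes, 36 were higher and 1 lower in Ada3-3KR, while 4 were higher and 28 lower in Gcn5m and 3 were higher and 20 lower in Spt7m. With centred libraries the respiratory counts were 7 higher and 19 lower in Gcn5m, and 6 higher and 14 lower in Spt7m. Of 55 G1/S genes, 42 were higher and 4 lower in Ada3-3KR, 1 higher and 50 lower in Gcn5m and 4 higher and 40 lower in Spt7m. SUC2 was higher in all 3 mutants, by 2.00 in Ada3-3KR, 0.68 in Gcn5m and 0.36 in Spt7m. GAP1 differed by 1.45 in Ada3-3KR, -1.15 in Gcn5m and -0.71 in Spt7m, and PHO5, a classic SAGA-dependent gene, by -0.87 in Ada3-3KR, -2.44 in Gcn5m and -2.61 in Spt7m. These values come from separate tables and were not tested against each other.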

How the data were processed

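RNA-seq of budding yeast was deposited by the authors as FPKM per gene, in separate tables for the Ada3 set and the bromodomain set. Per the submitters' processing notes, build R64 was used with HISAT2 2.1.0, StringTie 1.3.3b and cutadapt 1.16. Their settings are not given in the sources used here. FPKM holds no read counts, so the depth behind a value is unknown, and 3 libraries per group limit the precision.

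The members and gene lists were chosen with earlier results of these data known. Genes averaging 1 FPKM or more over the 12 libraries of the Ada3 set were tested on log2(FPKM + 1) in limma 3.58.1 (R 4.3.3, the data.table package at 1.17.8), with 1 mean per group, a mean-variance trend and Benjamini-Hochberg adjusted p under 0.05 over all genes; a fold change on this scale understates the change of low genes. The bromodomain set of 18 libraries was fitted apart. On simulated libraries of 5830 genes for the glucose comparison, the fit recovered 66, 96, 100 and 100% of 50 genes each changed by 0.3, 0.6, 1 and 2 (log2), with 4 false calls. The simulation gave each gene independent noise and changed only these genes, so its rates need not hold here, where most genes differed. Alternatives were quantile normalization, rescaling to the median, a pseudocount of 0.1, no filter, a 5 FPKM filter, the replicate number as a block, fitting only the compared groups, leaving out each replicate and, chosen after seeing the data, centring each library on its median gene.

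Named genes were the SAGA genes, strain markers and SUC2, the 15 largest rises and falls of called protein-coding genes that averaged 5 FPKM or more and whose groups do not overlap, up to 8 called genes of largest difference per list, and the uncalled genes of lists of up to 30. BAS1, CLN2, CLN3, FKH2, HAP4, HTA1, MCM1, MSN2, MSN4, NDE1, PRS2, PRS4, RPN4, XBP1 and YIL177C were named after their values were seen. Some results are not reported here. Of the 6101 genes, 6096 matched the RefSeq annotation of R64, the build of the files, which also gave coordinates and promoter sequences. Motif letters were searched on both strands in the 500 bases before the annotated start of 5754 protein-coding genes, and stretches of 80 bases are shown. Near-identical copies were genes matching at 90% identity or more over at least 50% of their length (BLAST 2.17.0). Python 3.11.15, pandas 2.3.3, scipy 1.17.1 and matplotlib 3.10.9 were used for the rest.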

Additional observations from a re-analysis of the deposited data

Results flagged for a closer look

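The strain difference in glucose minus that in sucrose was called by limma (adjusted p under 0.05) for 2264 genes. Of the genes named in the text, 31 are given here, those whose called difference between media was at least 2-fold (17) or whose 2 strain differences were called in opposite directions (14). Each value below is the Ada3-3KR minus WT difference in glucose minus that in sucrose, in log2 units.

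The difference was more positive in glucose for 22 of them. SUC2 stood at 2.07 and CIT2 at 2.01, though CIT2 was below WT in both media. JEN1 (1.81), HXT3 (1.14), MAL31 (1.07) and CIT3 (1.06) were not called in glucose and were below WT in sucrose. RCK1 (1.23), SPO24 (1.40) and PUT1 (1.04) were below WT in both media, and further below in sucrose. RGI2 (1.60), ALD3 (1.22) and NDE2 (1.07) were above WT in glucose and not called in sucrose, and HXT4 (1.12) was above WT in both. Genes above WT in glucose and below it in sucrose were FMP45 (1.75), ADY2 (1.55), CYC7 (1.13), CAT2 (1.08), HXT2 (1.03), ADR1 (0.95), EMI2 (0.95), CIT1 (0.94) and HXT7 (0.88).

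It was more negative in glucose for the other 9. NSR1 (-1.92) was below WT in glucose and not called in sucrose. HCA4 (-1.11), RRP12 (-1.08) and BSC1 (-1.24) were below WT in both media, and further below in glucose. TOD6 (-1.64), PHO5 (-1.004), PHO84 (-0.84), BAT1 (-0.47) and MCM1 (-0.35) were below WT in glucose and above it in sucrose. Groups of 3 libraries are too small for a test of single libraries that stand apart.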

How the results depend on the processing

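Under every alternative, the total counts of called genes stayed within 1.5 times. SUC2 in glucose kept its direction and call under each, and lay between 1.92 and 2.04. The split of calls moved with the scaling. Higher calls stayed the larger side for Ada3-3KR in glucose, but the larger side turned under at least 1 scaling in every other comparison. These were Ada3-3KR in sucrose, the difference between media, Gcn5m and Spt7m. In glucose, 1927 genes were called higher and 1515 lower with quantile normalization and 1980 and 1545 with median rescaling. The difference between media gave 1091 positive and 1230 negative with quantile normalization, and Gcn5m gave 1708 higher and 1789 lower with it and 1633 and 1882 with median rescaling, while Spt7m gave 1338 and 1448 with the first and 1319 and 1438 with the second. Leaving out 1 library gave 3346 to 3614 calls in glucose, 2932 to 3088 in sucrose, 2024 to 2250 for the difference between media, 3340 to 3481 in Gcn5m and 2724 to 2960 in Spt7m. Of 199 named genes tested, 180 kept their call or lack of one under every alternative, 6 lost a call under at least 1 and 13 gained one, and none turned its direction while called. The respiratory, citric acid cycle, stress, proteasome, cell cycle, purine, ribosomal protein and ribosome biogenesis lists kept the direction of most of their calls under every alternative. With the replicate number as a block, 2334 genes were called higher and 1281 lower in glucose. Deviations of same-numbered libraries correlated at 0.36, 0.126 and 0.099 for replicates 1, 2 and 3, and only replicate 1 correlated best with its own number, so the numbers were not taken as pairs of libraries. Low genes are limited by the unknown depth.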
